A study of Homo sapiens with 8 samples.

Results

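Sprouty and Spred proteins are feedback inhibitors of receptor tyrosine kinase signalling. The genes described here are 5 of the family, SPRY1, SPRY2, SPRY4, SPRED1 and SPRED2, out of 19817 protein-coding genes placed on chromosomes 1 to 22 and X. The set was named as a gene family, but it was chosen by someone who already knew that H3K36me2 over SPRY4 was listed in control cells and in neither knockdown. That contrast is therefore given as a description with no test, here and in all counts that include SPRY4. Each gene was read together with 50 kb on either side, which made windows of 105.2 to 225.4 kb and 756.5 kb in all.

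The study compared neural progenitor cells made from H9, a long-established line of human embryonic stem cells. The stem cells had been infected with a control lentivirus (NC) or with a lentivirus carrying a short hairpin RNA against KDM2A, sh1 or sh4, at a multiplicity of infection of 20. All groups were selected with puromycin at 1 µg/ml for 48 h or longer, so the control cells carry a lentivirus as well. The lists analysed here come from chromatin immunoprecipitation (ChIP) of H3K36me2 in NC, sh1 and sh4 cells and of KDM2A in NC cells, with 1 library in each group. No spread between cultures can be given, and the sh1 and sh4 comparisons share the same control library. The lists hold no expression values, so neither the depth of the knockdown nor the progenitor identity of the cells could be checked in them.

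Growth factor receptors activate RAS, RAF, MEK and ERK in turn, and ERK activity induces genes whose products dampen the same cascade. Sprouty proteins act between the receptor and RAF, in part by engaging adaptors such as GRB2, while Spred proteins bind neurofibromin, the RAS GTPase-activating protein encoded by NF1, and bring it to the membrane. In the developing nervous system this feedback limits signalling by fibroblast growth factors. KDM2A is a demethylase that removes dimethyl marks from lysine 36 of histone H3 (H3K36me2), and its CXXC zinc finger binds unmethylated CpG dinucleotides. H3K36me2 typically forms broad domains within and between genes.

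Because CpG dinucleotides are what KDM2A's zinc finger recognises, the start windows of the members are shown first, each 300 bases from RefSeq (GRCh38.p14), 5′ to 3′ on the gene's strand, with every CG in capitals. The window runs from 250 bases before a listed transcription start to 50 bases from it on. All 5 genes matched this table, with 9 listed starts among them. One CpG-rich start is printed for each gene, and the inner start of SPRED2 is added as the CpG-poor contrast.
SPRY1, chr4:123398136-123398435, plus strand: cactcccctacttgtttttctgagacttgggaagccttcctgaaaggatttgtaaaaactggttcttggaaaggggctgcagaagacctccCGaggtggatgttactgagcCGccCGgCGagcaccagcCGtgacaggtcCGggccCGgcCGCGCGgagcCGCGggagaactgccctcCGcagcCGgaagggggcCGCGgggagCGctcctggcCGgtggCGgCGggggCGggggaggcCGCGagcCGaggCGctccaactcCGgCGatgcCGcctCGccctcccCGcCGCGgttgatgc
SPRY2, chr13:80341077-80341376, minus strand: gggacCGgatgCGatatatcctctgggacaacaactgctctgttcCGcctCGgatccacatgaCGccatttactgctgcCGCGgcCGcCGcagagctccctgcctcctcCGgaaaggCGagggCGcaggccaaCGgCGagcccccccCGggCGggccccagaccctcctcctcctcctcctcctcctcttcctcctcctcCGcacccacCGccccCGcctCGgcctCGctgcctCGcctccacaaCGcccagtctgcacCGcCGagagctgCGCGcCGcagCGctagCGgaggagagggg
SPRY4, chr5:142324198-142324497, minus strand: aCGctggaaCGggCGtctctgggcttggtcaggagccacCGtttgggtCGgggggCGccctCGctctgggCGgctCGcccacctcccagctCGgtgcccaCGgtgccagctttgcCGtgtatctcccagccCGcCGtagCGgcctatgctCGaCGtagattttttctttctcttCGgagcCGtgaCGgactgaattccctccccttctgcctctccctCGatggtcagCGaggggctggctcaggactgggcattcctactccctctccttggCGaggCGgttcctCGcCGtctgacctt
SPRED1, chr15:38252586-38252885, plus strand: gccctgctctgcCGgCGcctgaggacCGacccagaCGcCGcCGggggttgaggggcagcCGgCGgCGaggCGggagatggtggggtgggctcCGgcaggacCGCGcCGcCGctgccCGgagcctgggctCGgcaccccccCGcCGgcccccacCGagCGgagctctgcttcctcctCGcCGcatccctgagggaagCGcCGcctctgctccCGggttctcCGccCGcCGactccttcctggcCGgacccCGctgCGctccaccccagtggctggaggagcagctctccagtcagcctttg
SPRED2 outer start, chr2:65432550-65432849, minus strand: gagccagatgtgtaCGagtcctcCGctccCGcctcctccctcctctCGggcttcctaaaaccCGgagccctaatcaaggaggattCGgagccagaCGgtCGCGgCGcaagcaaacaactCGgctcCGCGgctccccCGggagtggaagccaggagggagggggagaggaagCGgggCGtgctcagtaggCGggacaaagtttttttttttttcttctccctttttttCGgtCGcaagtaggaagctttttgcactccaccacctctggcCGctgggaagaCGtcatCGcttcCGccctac
SPRED2 inner start, chr2:65366729-65367028, minus strand: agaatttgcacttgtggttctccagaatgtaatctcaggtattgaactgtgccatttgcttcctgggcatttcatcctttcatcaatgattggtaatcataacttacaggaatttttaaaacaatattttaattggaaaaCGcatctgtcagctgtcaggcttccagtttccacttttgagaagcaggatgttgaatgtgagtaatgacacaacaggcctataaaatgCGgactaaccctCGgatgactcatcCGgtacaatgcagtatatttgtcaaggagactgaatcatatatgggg

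The motif counted was CG, which reads the same on both strands. The number of CG was 32 at SPRY1, 30 at SPRY2, 26 at SPRY4, 32 at SPRED1 and 23 at the outer start of SPRED2. The inner start of SPRED2 held 4. Over 22131 start windows of protein-coding genes the median was 21 (quartiles 7 and 31), and 98.1% held at least 1. The printed CpG-rich starts were picked for their CG, and 24.4% of all windows held at least as many as SPRY1 or SPRED1 and 46.1% at least as many as the outer start of SPRED2. The 3 starts not printed held 12 (SPRY1, its outer start), 6 and 15 CG (SPRY2), so that 4 of the 9 were below the median of all windows. None of the 9 start windows was touched by an H3K36me2 region in any of the 3 libraries. Over all start windows such regions were rare, with 1.48% touched in control cells, 0.863% with sh1 and 0.849% with sh4. A KDM2A peak lay over 1 of the 9, that of SPRY4, against 21.0% of all start windows.

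**Figure D1:**
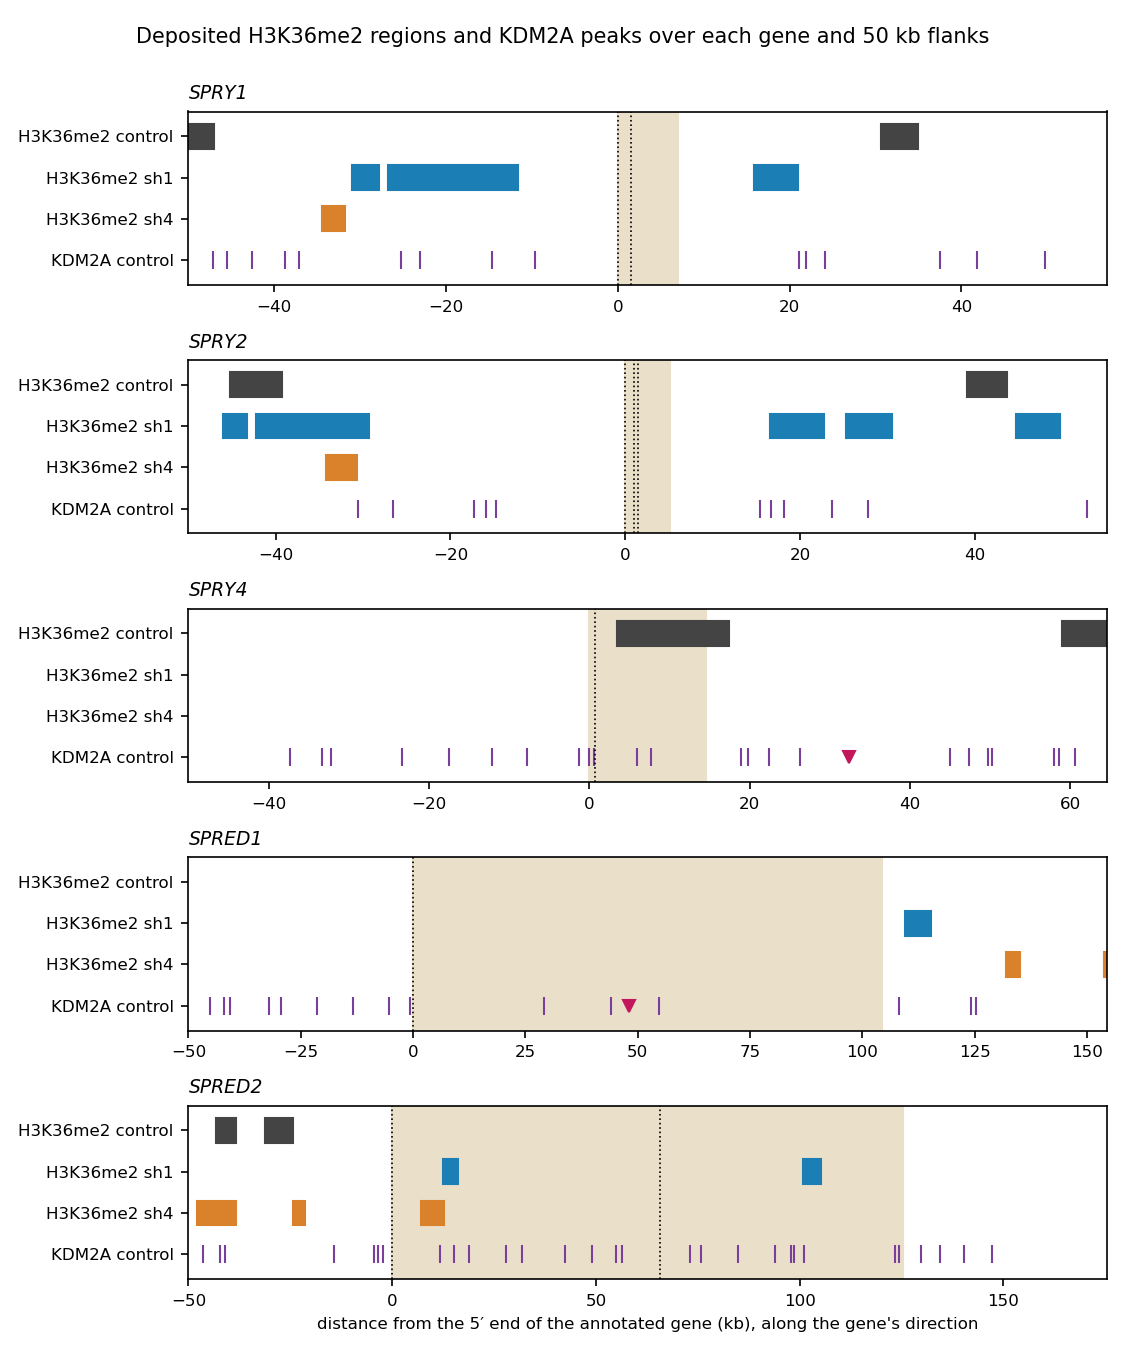
Maps of the 5 windows, with distance from the 5′ end of the annotated gene in kb on the x axis, the gene shaded and listed starts dotted. Bars are H3K36me2 regions of the control (grey), sh1 (blue) and sh4 (orange) libraries, ticks are KDM2A peaks, and triangles are the 2 KDM2A peaks with a false discovery rate under 0.05. Only control bars appear in the SPRY4 window, and the control row of SPRED1 is empty.

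SPRY4 encodes a Sprouty protein that is itself induced by ERK signalling. The gene (gene 81848, chr5:142310430-142325021, minus strand) was the only member with H3K36me2 inside it in control cells. The deposited control region, chr5:142307601-142321600, was 14000 bp wide and covered 76.6% of the gene, and it ended 2.65 kb short of the listed start. Its covered part spans the position of SPRY4-IT1, a long noncoding RNA annotated within the gene. In sh1 and in sh4 the covered share of the gene was 0%.

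That region was weak by the authors' fold, the linear ratio of immunoprecipitate (IP) to input reads. Its fold was 1.26, from 525 IP and 410 input reads, with a 95% exact counting interval of 1.11 to 1.44. All such intervals cover counting error only. Only 0.868% of control regions had a lower fold, whereas 98.2% were narrower. Low folds are usual for wide regions: the 533 control regions of 12 to 16 kb had a median fold of 1.31. Regions of that width were listed with folds down to 1.21 in sh1 and 1.19 in sh4. The region held 29.3 input reads per kb, against a median of 23.3 for control regions.

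A further control region of 7600 bp lay downstream of SPRY4, chr5:142258401-142266000, with a fold of 1.57 (1.30 to 1.91) from 278 IP and 174 input reads. The SPRY4 window therefore had a control coverage of 17.1%, against 0% in either hairpin library. The nearest region to the listed start lay 127.0 kb away in sh1 and 197.6 kb away in sh4. A stretch with no listed region has no read count in these files, so a level below the calling limit cannot be told from absence of the mark. With regions at or below a fold of 1.59 (the control median) dropped, the control coverage of SPRY4 was 0% as well, and the contrast with the hairpins ended. The region over the gene had an FDR of 1.19e-06, so a limit of 1e-10 on the FDR also left the SPRY4 gene at 0% in the control.

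SPRY4 was 1 of 2793 genes (14.1%) with a control region and none in both hairpins over the gene and flanks. By gene body it was 1 of 1467 (7.40%). Among 15 genes of at least 5 kb covered in the control to the same extent or more, SPRY4 included, 11 had no H3K36me2 over the gene in either hairpin library. By gene-body coverage in control, sh1 and sh4, the genes of at least 5 kb most like SPRY4 were TAGLN3 (76.7%, 0% and 0%), RBP3 (78.6%, 0% and 0%) and GM2A (73.0%, 0% and 0%). The measure was the Euclidean distance over the 3 libraries, which was 0.155, 2.03 and 3.54 percentage points. The wider surroundings of SPRY4 were not empty in the hairpins: with 1 Mb on each side, 187.4 kb was covered in the control, 131.0 kb in sh1 and 112.2 kb in sh4.

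SPRY1, which encodes a Sprouty protein known for restraining fibroblast growth factor and GDNF signalling, had H3K36me2 in its flanks and none in the gene (gene 10252, chr4:123396795-123403760, plus strand). Covered length in the window was 7406 bp (control), 23600 bp (sh1) and 2600 bp (sh4), or 6.92%, 22.1% and 2.43%. The order was thus sh1, control, sh4. The control had a region at the outer edge of the upstream flank (fold 1.44) and another 29.0 kb downstream of the nearest start (chr4:123427401-123431800, fold 1.68, interval 1.32 to 2.15).

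In sh1 the SPRY1 window held 3 regions. The widest, chr4:123370001-123385200, spanned 15200 bp upstream of the gene and ended 11.6 kb from the start, with a fold of 1.28 (1.12 to 1.46; 502 IP and 389 input reads). It was among the weaker regions of its library by fold. The others were chr4:123365801-123369000 upstream (fold 1.80) and chr4:123412601-123417800 downstream (fold 1.49). The single sh4 region, chr4:123362401-123365000, had a fold of 1.61 (1.17 to 2.23; 106 IP and 65 input reads). No region of one library overlapped a region of another inside this window, although several lay within the same upstream stretch.

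SPRY2 encodes a widely expressed Sprouty protein that binds the ubiquitin ligase CBL and GRB2. Its gene (gene 10253, chr13:80335976-80341126, minus strand) was also free of H3K36me2 in every library, with regions on both sides. Covered length was 10600 bp (control), 32200 bp (sh1) and 3600 bp (sh4), or 10.1%, 30.6% and 3.42% of the window. The libraries stood in the same order as at SPRY1. At both genes, with 50 kb flanks, sh1 covered over 2-fold more and sh4 over 2-fold less than the control. By covered length the hairpins thus moved to opposite sides at that width, where sh4 had 1 region in each window. With 100 kb flanks both hairpins were above the control at both genes. Covered length was then 15.6 kb (control), 34.8 kb (sh1) and 18.2 kb (sh4) for SPRY1. For SPRY2 it was 10.6 kb, 38 kb and 15.8 kb in the same order. With 50 kb flanks, the sh1 excess at SPRY1 ended under a limit on the fold, while at SPRY2 it ended only under a limit on the FDR. With regions at or below a fold of 1.59 (the control median) dropped, SPRY1 kept 4400 bp in the control and 3200 bp in sh1. SPRY2 still had more in sh1 under that rule. With an FDR limit of 1e-10, SPRY2 kept 4600 bp in the control and 2800 bp in sh1, and SPRY1 kept no region in any library.

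The strongest control region of the 5 windows lay in the downstream flank of SPRY2, chr13:80297401-80302000, with a fold of 2.11 (1.60 to 2.80; 165 IP and 77 input reads) and a deposited FDR of 1.29e-15. No region of sh1 or sh4 overlapped it. The nearest sh1 region, chr13:80291401-80296400 (fold 1.48), lay in the same flank and ended short of it. In sh1 that flank also held chr13:80310601-80315800 (fold 1.72) and chr13:80318401-80324600 (fold 1.45), while sh4 had no region there. The second control region, chr13:80380401-80386400 in the upstream flank (fold 1.49), was met by 2 sh1 regions over 3000 and 2000 bp. These were chr13:80370401-80383400, 13000 bp wide with a fold of 1.26, and chr13:80384401-80387200, 2800 bp wide with a fold of 2.14 (1.51 to 3.08). The only sh4 region, chr13:80371801-80375400 (fold 1.72), fell wholly inside the wider of them. In the upstream flank of SPRY2 the sh1 regions thus overlapped those of both other libraries.

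SPRED1 encodes the Spred protein whose loss-of-function variants cause Legius syndrome, a RAS pathway disorder. Its gene (gene 161742, chr15:38252836-38357249, plus strand) and its flanks held no control region. The hairpin libraries had regions beyond the 3′ end of the gene. In sh1 this was chr15:38362401-38368000, 5600 bp wide, with a fold of 1.85 (1.46 to 2.34; 211 IP and 113 input reads). In sh4 these were chr15:38384801-38388000 (fold 1.64) and the first 649 bp of a region at the window's edge (fold 1.503). The covered share was 0% (control), 2.74% (sh1) and 1.88% (sh4). The hairpin regions did not overlap each other, and all 3 lay over 100 kb from the listed start.

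SPRED2 encodes a Spred protein that likewise suppresses ERK activation. Its gene (gene 200734, chr2:65307175-65432599, minus strand) was the only member with H3K36me2 inside it in the hairpin libraries. The gene body was covered over 0% (control), 6.38% (sh1) and 4.62% (sh4). In sh1 the regions were chr2:65416401-65420000, 12.6 kb into the gene from its outer start, with a fold of 1.75 (1.35 to 2.29), and chr2:65327401-65331800 towards the 3′ end, with a fold of 1.64 (1.26 to 2.12). In sh4 it was chr2:65419801-65425600, 7.00 kb from the outer start, with a fold of 1.77 (1.42 to 2.22). The 5′ regions of sh1 and sh4 overlapped by 200 bp, the width of 1 bin of the authors' grid. All 3 regions had folds above the control's median. Both sh1 regions had FDRs above 1e-10 (6.60e-10 and 3.53e-08), so with that limit on the FDR the sh1 coverage of the gene was 0% and the presence in both hairpins ended.

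Such a pattern, a region in the gene body in both hairpins and none in the control, was found in 426 genes (2.15%). Nearest to SPRED2 by the same distance were TMPRSS11D (0%, 6.02% and 4.75% in control, sh1 and sh4), TBCA (0%, 6.11% and 4.93%) and SLC7A11 (0%, 6.13% and 4.22%). Those 3 distances were 0.381, 0.411 and 0.471 percentage points.

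Upstream of SPRED2 the control had regions at chr2:65457001-65463800 (fold 1.43) and chr2:65470801-65475800 (fold 1.41). The second was covered over 4800 bp, 96.0% of its width, by the sh4 region chr2:65471001-65480600 (fold 1.32, interval 1.12 to 1.55). By base pairs this was the longest single overlap between regions of 2 libraries in the 5 windows. A sh4 region at chr2:65454001-65457000 (fold 1.87) directly adjoined the first control region without sharing a base with it. Over the whole window SPRED2 was covered over 5.23% (control), 3.55% (sh1) and 8.16% (sh4). This is the reverse of the order of the hairpins at SPRY1 and SPRY2.

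**Figure D2:**
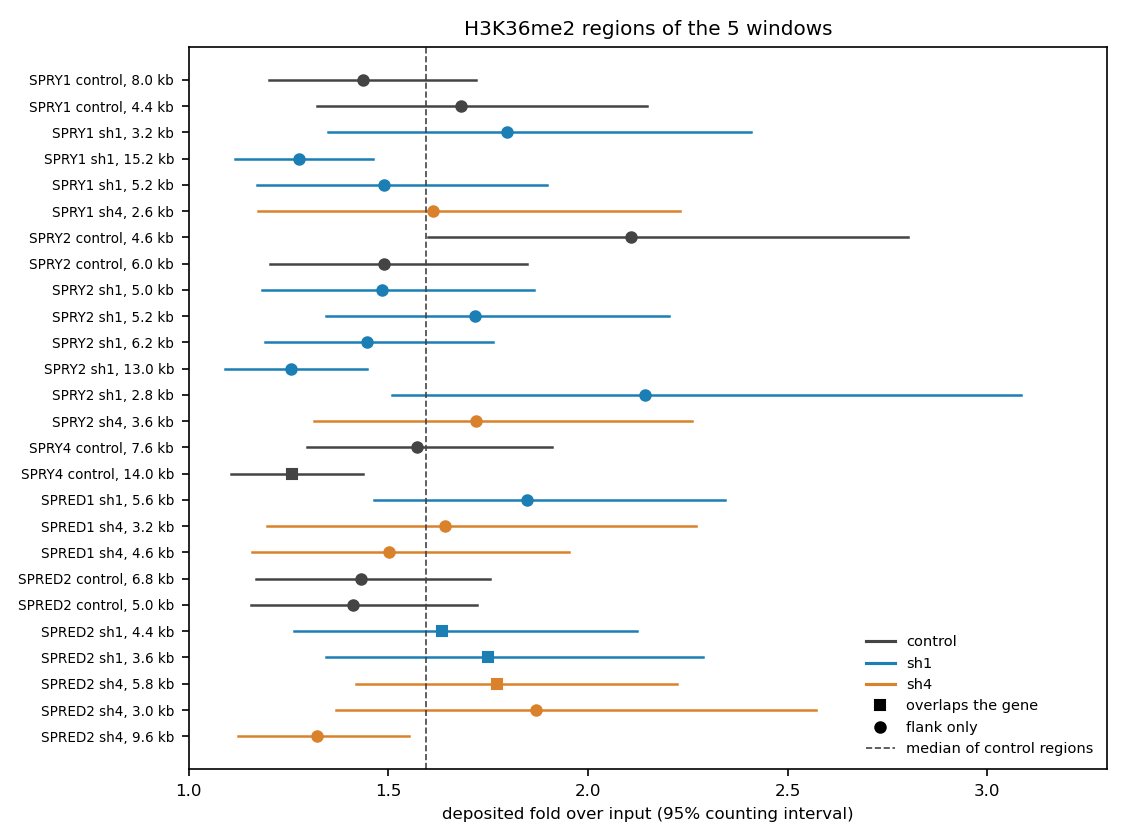
Deposited fold over input (x axis, with 95% exact counting interval) of each of the 26 H3K36me2 regions in the 5 windows, labelled by gene, library and width. Squares overlap the gene and circles lie in a flank. The 14.0 kb control region over SPRY4 has a fold of 1.26, and the widest sh1 regions at SPRY1 and SPRY2 lie at 1.28 and 1.26.

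Taking the members together, 4 of the 5 windows had at least 1 H3K36me2 region in the control (SPRED1 had none), 4 in sh1 and 4 in sh4 (SPRY4 had none in either). Over all genes the shares were 41.7% (control), 31.0% (sh1) and 28.7% (sh4). The median member window was covered over 6.92%, 3.55% and 2.43%, while the median over all genes was 0% in each library. Windows differ in length, with a median of 114.6 kb for the members and 124.5 kb for all genes. They also differ in gene content: 4 of the 5 members had no other protein-coding gene in the window, against 11.2% of all genes, and SPRED2 had 1, ACTR2. The part of gene content in these shares was not tested.

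**Figure D3:**
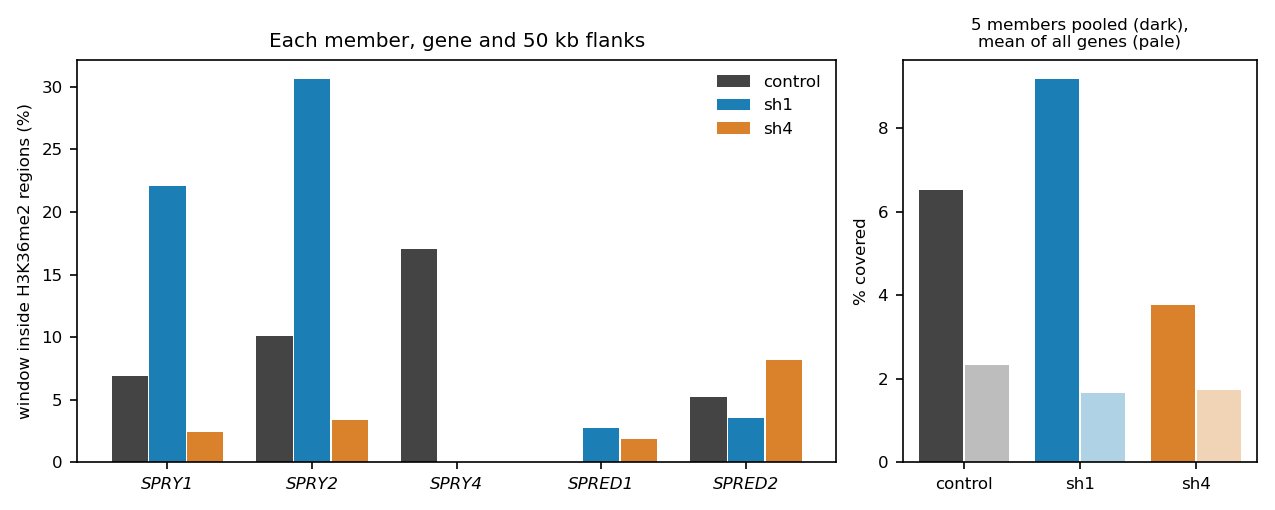
Left, percent of each gene and its 50 kb flanks inside H3K36me2 regions in the control, sh1 and sh4 libraries, 1 library per bar. Right, the 5 windows pooled (6.53%, 9.17% and 3.76%, dark) beside the mean over all protein-coding genes (2.33%, 1.66% and 1.74%, pale). The order of the libraries differs from gene to gene.

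Summed over the windows, H3K36me2 covered 49377 bp (control), 69400 bp (sh1) and 28449 bp (sh4). The ratio to the control was 1.41 in sh1 and 0.576 in sh4, against 0.793 and 0.858 for the summed windows of all genes. Windows of neighbouring genes overlap, so that sum counts gene-dense stretches more than once. The whole lists covered 101.8 Mb (control), 94.3 Mb (sh1) and 112.1 Mb (sh4), so in total sh4 was above the control. Without SPRY2 the sh1 ratio was 0.959, and without SPRY4 the sh4 ratio was 0.954. Relative to the control, 3 members had more covered length in sh1 and 2 had less, and 2 had more in sh4 and 3 had less. A covered length at least 2-fold lower in both hairpins was found for 1 member, SPRY4, against 19.1% of all genes. A length at least 2-fold higher in both was found for 1, SPRED1, against 5.25%. The control length of SPRED1 was 0 bp, so no fold can be given. With 100 kb flanks SPRED1 had 7.2 kb (control), 9.6 kb (sh1) and 22.0 kb (sh4), which was under 2-fold for sh1.

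Of the 8 control regions, 3 overlapped a region of either hairpin library by at least 1 bp (37.5%, exact interval 8.52 to 75.5%), against 25.8% of all 19691 control regions. The overlap at SPRY1 among these lay just outside the 50 kb flank. Control and sh1 shared 5000 bp, which was 10.1% of the control's and 7.20% of sh1's length in the windows. Control and sh4 shared 4800 bp (9.72% and 16.9%), and sh1 and sh4 shared 3800 bp (5.48% and 13.4%). Genome-wide these shares were 9.67% and 10.4%, 8.68% and 7.87%, and 11.3% and 9.53%, so most of the covered length of each library was unshared genome-wide as well.

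Listed KDM2A peaks in control cells were thinner in these windows, except that of SPRY4, than around most genes. The list holds 504724 peaks with a median fold of 2.33. An FDR under 0.05 was reached by 3.13% of peaks, so most single peaks are weak. The 5 windows held 95 peaks, or 12.6 per 100 kb (exact Poisson interval 10.2 to 15.4), with a median fold of 2.33. Of the 95, only 2 had an FDR under 0.05, so the density mostly counts weak peaks. The median window of all genes had 19.8 per 100 kb (quartiles 15.4 and 24.97). SPRY4 had the densest set, 20.9 per 100 kb, followed by SPRY1 with 14.0, SPRED2 with 12.9, SPRY2 with 10.5 and SPRED1 with 7.83. Only 1.25% of genes had a lower density than SPRED1, while SPRY4 lay near the middle, with 56.0% lower. As given above, 4 of the 5 windows held no other protein-coding gene, against 11.2% of all genes. The part of gene content in the KDM2A density was not tested.

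At the starts, KDM2A peaks within 2 kb were listed for 2 of the 5 members, SPRY4 and SPRED1, against 68.9% of the 15811 genes with listed starts. SPRY4 had 3 of them. The peak over its start, chr5:142324140-142324696, was 557 bp wide and contained the whole CpG-rich window printed for SPRY4, but its fold was 1.73 and its FDR 0.839. Beside it, at the 5′ end of the gene, lay chr5:142324856-142325137, with FDR 0.547 and a fold of 2.22. The third, chr5:142326124-142326354, had a fold of 1.81. At SPRED1 a peak with a fold of 2.17 (FDR 0.630) lay 596 bp upstream of the start.

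The nearest peak lay 2107 bp upstream of the outer start at SPRED2, with a fold of 2.48 and FDR of 0.407. It lay 9.59 kb from a listed start at SPRY1 and 13.9 kb at SPRY2. Inside the genes the counts were 4 peaks in SPRY4, 4 in SPRED1 and 18 in SPRED2, or 27.4, 3.83 and 14.4 per 100 kb of gene. SPRY1 and SPRY2 had none, but these genes span only 6.97 and 5.15 kb. The CpG-rich starts of SPRY1 and SPRED1, with equal numbers of CG, thus differed in whether a weak peak was nearby.

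**Figure D4:**
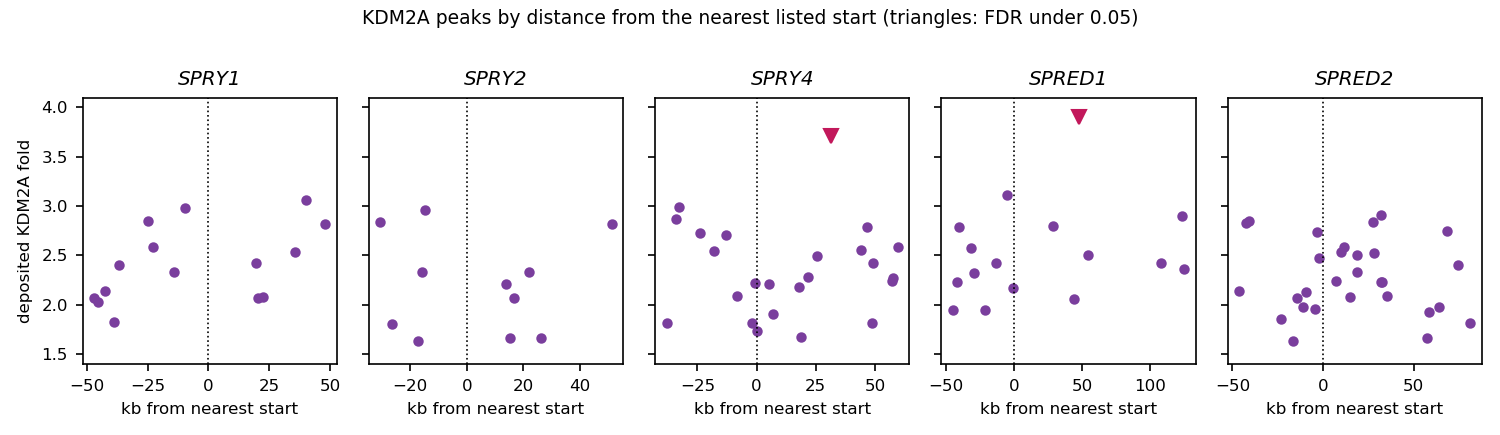
Deposited fold of each of the 95 KDM2A peaks (y axis) by signed distance in kb from the nearest listed start (x axis, upstream to the left), 1 panel per gene. Triangles have an FDR under 0.05, and both lie over 30 kb from a start, at 31.6 kb for SPRY4 and 47.9 kb for SPRED1.

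A peak with an FDR under 0.05 was present in 2 of the 5 windows, against 56.6% of all genes. The one at SPRED1 lay inside the gene, chr15:38300740-38300946, with a fold of 3.90, a pileup (stacked fragments) of 12 and an FDR of 0.0101. The one at SPRY4 lay in the downstream flank, chr5:142292496-142292682, with a fold of 3.71, a pileup of 15 and an FDR of 0.00529. It sat between the 2 control H3K36me2 regions and inside neither. The best peaks of the other windows had folds of 3.06 at SPRY1 (FDR 0.141), 2.96 at SPRY2 (FDR 0.180) and 2.91 at SPRED2 (FDR 0.186).

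The share of KDM2A peaks inside H3K36me2 regions was close to the share of length in these windows. Of the 95 peaks, 6 (6.32%) had their midpoint in a control H3K36me2 region, and such regions made up 6.53% of the windows. For the hairpin libraries the shares were 9.47% of peaks in 9.17% of the length (sh1) and 4.21% in 3.76% (sh4). The control region over SPRY4 held 2 peaks, with folds of 1.91 and 2.21, and the stretch upstream of SPRED2 shared by control and sh4 held 2, with folds of 2.85 and 2.83.

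The remaining paralogues, SPRY3 and SPRED3, had no H3K36me2 region over the gene and flanks in any of the 3 libraries. The wider pathway was read from 32 genes, namely Sprouty and Spred partners and adaptors, the RAS to ERK cascade, and ERK-induced targets. Of these, a region over the gene and flanks was found in 13 (control), 13 (sh1) and 12 (sh4), against 41.7%, 31.0% and 28.7% of all genes. Covered length was at least 2-fold lower in both hairpins for 4 of 32 and at least 2-fold higher in both for 4, against 19.1% and 5.25% of all genes. A control gene-body region with none in the hairpins, as at SPRY4, was found in 1 of the 32 (7.40% of all genes), and the SPRED2 pattern also in 1 (2.15%). A KDM2A peak with an FDR under 0.05 was present in 23 of the 32 windows (56.6% of all genes), and a peak within 2 kb of a start in 16 of 21 (68.9%).

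The pathway genes with the most gene-body H3K36me2 in each group showed no common order of the libraries. The adaptor gene FRS2, which links fibroblast growth factor receptors to GRB2, was covered over 7.68% (control), 3.66% (sh1) and 4.75% (sh4). The RAS exchange factor gene SOS1 was at 6.84%, 0% and 6.42%, and MAP2K1, which encodes the kinase MEK1, was at 7.65%, 6.31% and 0%. Of the ETS factor genes induced by ERK, ETV5 was at 0%, 9.56% and 0%, and ETV1 at 0%, 6.19% and 0%.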

How the data were processed

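The authors' deposited lists give, per the file headers, position, width, fold, p-value and FDR of each region or peak. The fold is linear, and in the H3K36me2 lists it is the ratio of IP to background. In the KDM2A list pileups of 7, 8 and 9 recur at folds of 2.07, 2.33 and 2.59. Those values are in proportion to the pileup plus 1, so that fold is not the plain ratio. The H3K36me2 lists add a score (per the file headers; 100 times the log2 fold by its values, not used further), and the KDM2A list adds a pileup, a deposited signal not scaled to depth. Bowtie 1.1.2, SICER and MACS2 are named in the submitters' processing notes, with hg38 and GRCh38. Which tool made which list is not given in the sources used here. H3K36me2 regions lie on a 200 bp grid counted from 0 and have FDRs under 1e-05. The KDM2A list reaches an FDR of 0.869. Coordinates are printed from 1.

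IP and input reads of H3K36me2 regions were recovered from fold and p-value, taken as Poisson tail probabilities. In each list 100% of IP values lay within 0.001 and 100% of input values within 0.01 of a whole number, where p was above 0. The median control region held 162 IP and 99 input reads (sh1 151 and 89; sh4 156 and 92). Library totals, and with them depth, are unknown. Fold intervals are exact binomial (95%).

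Genes came from RefSeq GRCh38.p14, and 679 genes of alternate sequences were left out. Starts and strands came from the RefSeq start windows, which list 15811 of the protein-coding genes. Coverage is the percent of a window inside listed regions, and KDM2A peaks were placed by midpoint. With 1 library per group no test was made. The alternatives were other flanks, stricter regions or peaks, other overlap rules and leaving out a member. Scripts were tested on simulated data (Python 3.11.15, NumPy 2.4.6, pandas 2.3.3, SciPy 1.17.1).

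The members, lists and rules were chosen with earlier results of these data known. The text names all members, their paralogues, up to 2 genes per pathway list with the highest summed gene-body coverage, and 3 genes most alike for each member with gene-body H3K36me2. The result for 1 gene that this rule names is not reported here.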

Additional observations from a re-analysis of the deposited data

How the results depend on the processing

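The pooled sh1 ratio of covered length moved under each of the 9 alternatives, and the sh4 ratio under 5 of 9. A ratio counted as moved when it crossed 1 or left an interval of 1.19 to 1.67 (sh1) or 0.464 to 0.710 (sh4). These binomial intervals take each covered 200 bp bin as independent. Bins of the same region are not, so the intervals are too narrow and the counts of moved settings are only a guide. For sh1 (1.41 times the control) the ratio was 2.39 with 20 kb flanks, 1.18 with 100 kb, 2.76 with regions at or below the control median fold dropped, and 2.33 without SPRY4. It fell below 1 over gene bodies alone (0.716) and with an FDR limit of 1e-10 (0.826). For sh4 (0.576 times) it was 0.414 with 20 kb flanks, 0.940 with 100 kb and 0.954 without SPRY4. It was 2.02 after the same regions were dropped, but 0.519 over gene bodies and 0.570 with the FDR limit. The fold cut was the control's own median, whereas the median fold was 1.65 in both sh1 and sh4. That cut therefore dropped a larger share of control regions than of hairpin regions genome-wide. Alternatives chosen after seeing the data gave, for sh1, 1.09 without SPRY1, 0.959 without SPRY2 and 0.943 with 1 Mb flanks. For sh4 they gave 0.616 without SPRY1, 0.641 without SPRY2 and 1.008 with 1 Mb flanks. KDM2A density (12.6 per 100 kb) was 10.1 in gene bodies, against a median of 18.2 over all genes. With an FDR under 0.05 it was 0.264 against 0.495, and with the 10% of highest folds 0.529 against 1.71. It stayed below the median of all genes in each of the 7 settings. With the FDR limit of 1e-10, applied to gene bodies after seeing the data, the coverage of SPRY4 in the control and of SPRED2 in sh1 was 0%. The cause of these changes was not tested. The control regions shared with a hairpin were 2 of 8 with an overlap of at least 50% and 4 of 8 within 1 kb. With 100 kb flanks they were 4 of 12. Unlisted stretches have no reads in these files, which limits every statement of absence.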

Other observations

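Outside the 50 kb flanks the members again differed. With 1 Mb on each side of SPRED1, H3K36me2 covered 71.6 kb in the control, 62.6 kb in sh1 and 120.4 kb in sh4. Around SPRY1 the values were 196.6, 218.4 and 250.6 kb, around SPRY2 they were 182.0, 167.2 and 190.6 kb, and around SPRED2 126.8, 141.8 and 96.8 kb. Around SPRY1 and SPRY2 the sh4 library was therefore the most covered at 1 Mb and the least covered at 50 kb. Over the whole of chromosomes 4 and 13, sh4 regions covered 123.1% and 108.4% of the control's length, so sh4 was above the control over those chromosomes as well. SPRY4 was the member for which the control was highest at each of 50 kb, 100 kb and 1 Mb, and the SPRY4 surroundings were at 0 kb in both hairpins with 100 kb flanks as well. On chromosome 5 as a whole, sh1 and sh4 covered 104.0% and 115.6% of the control's length.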
